A study of Homo sapiens with 6 samples.

Results

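Serum amyloid A and complement genes were followed in HaCaT cells with and without histamine. The genes are SAA1, SAA2, CFB, C1R, C1S, C3, CD46, CD55 and CD59, and they were taken by symbol from the probe annotation table. These 9 genes were chosen by their histamine against control differences on the same 6 arrays, which were already known. Those differences between the groups are therefore given as a description, without p-values. The annotation table lists 16 probes for 8 of the 9 genes. It lists none for CD46, which was not analysed here. A probe was called detected on an array at a detection p-value under 0.05, and kept when 3 or more of the 6 arrays detected it. Of the 16 probes 8 were kept, and so 6 of the 9 genes were among the 10406 genes tested. SAA2 and C3 have probes, but none was kept.

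HaCaT is an immortalized line of human skin keratinocytes, so all values come from 1 cell line. The control group held 3 arrays with the agent label control, and the histamine group held 3 arrays of cells given 1 µg/ml histamine, an amine stored in mast cells, for 24 h. All cells grew in DMEM, a standard culture medium, with 1.5 mM calcium and 10% fetal calf serum. The labels call the arrays of a group triplicate without saying whether they are separate cultures. The p-values and SEs below therefore reflect only how far these arrays differ from each other, and that spread may be technical. They come from a limma fit that draws the variance of each gene toward that of genes of similar intensity. They are thus not the spread of a single gene's arrays alone.

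Serum amyloid A proteins are small apolipoproteins that the liver releases in the acute phase response to inflammation, and epithelia make them as well. Complement is a cascade of plasma proteins that coats and lyses targets. The proteases C1r and C1s start the classical pathway, factor B (CFB) supplies the protease of the alternative pathway, and both routes cleave C3, the central component. Keratinocytes are known as a local source of C3 and factor B in skin. Cells shield themselves with the membrane proteins CD55, which dissociates the enzymes that cleave C3, CD46, a cofactor for the breakdown of deposited fragments, and CD59, which blocks the lytic pore.

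Sequence upstream of the genes was available for CFB and CD55, 2 of the 3 genes that passed the test threshold, and is shown because these are the regions where regulatory factors of both genes would act. Each window runs from 250 bases before to 50 bases after the gene start in RefSeq on build GRCh38.p14, 5′ to 3′ on the strand of the gene. Capitals mark the NF-kB consensus and the STAT motif TTCNNNGAA, searched on both strands, where they occur. The CFB window is chr6:31945845-31946144 (plus strand) and the CD55 window is chr1:207321428-207321727 (plus strand).
CFB: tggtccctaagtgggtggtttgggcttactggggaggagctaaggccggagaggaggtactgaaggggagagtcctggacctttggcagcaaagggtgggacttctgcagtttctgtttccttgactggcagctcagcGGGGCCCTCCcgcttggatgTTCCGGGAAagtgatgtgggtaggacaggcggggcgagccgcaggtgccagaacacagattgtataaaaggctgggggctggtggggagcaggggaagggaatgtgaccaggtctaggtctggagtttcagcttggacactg
CD55: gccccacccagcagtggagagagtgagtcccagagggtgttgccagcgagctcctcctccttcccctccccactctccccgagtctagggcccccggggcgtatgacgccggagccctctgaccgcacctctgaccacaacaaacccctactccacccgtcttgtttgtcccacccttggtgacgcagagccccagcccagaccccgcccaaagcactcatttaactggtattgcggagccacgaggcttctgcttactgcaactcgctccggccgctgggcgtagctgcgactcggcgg

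The CFB window held 1 NF-kB match, with its first base at -112 from the gene start, and 1 STAT match, with its first base at -92. The 2 matches do not overlap. The CD55 window held neither. The C/EBP motif TTNNGNAA, also searched on both strands, was in neither window. Over the 35116 promoter windows of the same table, 11.3% held the NF-kB consensus, 7.7% the STAT motif and 36.8% the C/EBP motif. Of the 2 windows listed for C1R, 1 held a STAT match and 1 C/EBP match and the other 2 C/EBP matches. For CD59, 2 of its 4 windows, which overlap each other, held 1 STAT match, and 1 other held 2 C/EBP matches. These matches are letters in a window and were not tested as binding sites.

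Of the 4 tested genes with a probe detected in both groups, SAA1 had the largest difference, followed by CFB, CD55 and CD59. The kept probes of C1R and C1S and the SAA2 probe were below background on every control array and have only a lower bound, so these genes are not ranked. In the limma fit over all 10406 genes, 3 of the 6 tested genes passed an adjusted p-value of 0.05 and were higher (SAA1, CFB and CD55), none was lower, and 3 did not pass (C1R, C1S and CD59). Of all genes tested 21.4% passed, 9.29% as higher and 12.1% as lower. At an unadjusted p-value under 0.05, 5 of the 6 members passed, all upward, where 34.5% of all genes tested passed, 13.8% upward and 20.7% downward. For 5 of the 6, every histamine array was above every control array; of all genes tested 37.4% had groups that did not overlap, and 14.4% had them with histamine higher. Because the genes were chosen with this contrast known, nothing is read from these counts. The kept probes of SAA1, C1R and C1S reached 3 arrays only with the histamine group, so the filter itself selected them toward being higher with histamine.

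**Figure D1:**
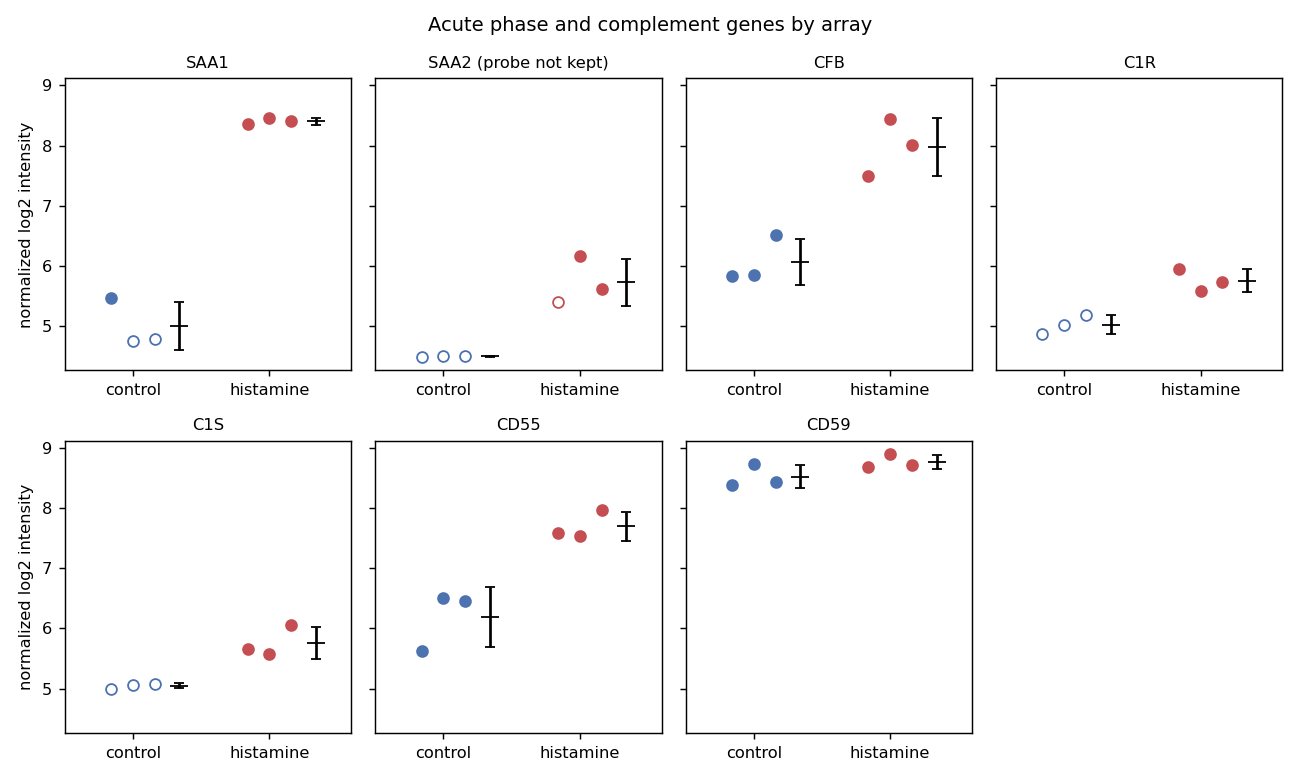
Normalized log2 intensity (vertical axis) on the 3 control and 3 histamine arrays for the probe that stands for each gene, and for the SAA2 probe that did not pass the filter; filled points were detected, open points were not, and bars show the mean ± SD of each group. SAA1 shows the widest gap between the groups, CFB and CD55 are detected in both groups and separate, and CD59 overlaps.

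SAA1 encodes the main acute phase form of serum amyloid A. Its brightest probe, ILMN_2304512, read normalized log2 intensities of 5.46, 4.76 and 4.77 on control arrays 1, 2 and 3 and of 8.35, 8.46 and 8.40 on histamine arrays 1, 2 and 3. The groups lay far apart, with 2.89 log2 units between the highest control and the lowest histamine value. The control group varied more, at an SD of 0.40 (n = 3), than the histamine group, at 0.06 (n = 3), and its higher array, replicate 1, was the 1 control array on which SAA1 was detected. The difference was 3.41 ± 0.23 on the log2 scale (SE, n = 3 per group), or 10.6-fold. Without control replicate 1, every control array is below background, and SAA1 was at least 7.98-fold higher with histamine. The difference was 1.85 without background correction and 2.49 with an offset of 50. In the authors' processed table, which may differ in other steps too, it was 1.40.

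A further probe of SAA1, ILMN_1701017, was detected on no control array and on all 3 histamine arrays. It read 5.37, 4.82 and 4.74 on control arrays 1, 2 and 3 and 6.99, 7.21 and 6.87 on histamine arrays 1, 2 and 3, and was at least 3.09-fold higher with histamine. For this bound each control array enters at the dimmest detected probe of that array, or at the SAA1 probe itself where that was brighter. It ranged from 2.89-fold to 3.25-fold when single arrays were left out. The third probe, ILMN_1808732, was detected on histamine array 1 alone and did not pass the filter; its values of 4.65, 4.64 and 4.72 in controls and 5.52, 5.32 and 5.35 with histamine did not overlap, but no fold is given for it. The 3 probes of SAA1 thus ordered the groups the same way.

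SAA2, the neighbour of SAA1 on chromosome 11, encodes the other acute phase serum amyloid A. The transcripts of both genes are near-identical, so their probes may read each other. The 1 probe of SAA2 gave deposited signals of 89.8, 106 and 99.8 on control arrays 1, 2 and 3 and of 133, 157 and 145 on histamine arrays 1, 2 and 3. It was detected on no control array and on histamine arrays 2 and 3, which is 1 array short of the filter. On the normalized log2 scale it read 4.48, 4.50 and 4.50 in controls and 5.40, 6.16 and 5.62 with histamine, without overlap. The bound was at least 1.25-fold higher, and 1.08-fold to 1.40-fold with single arrays left out. SAA4, the constitutive form of the family and also a neighbour on chromosome 11, was detected on 1 control and 1 histamine array.

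**Figure D2:**
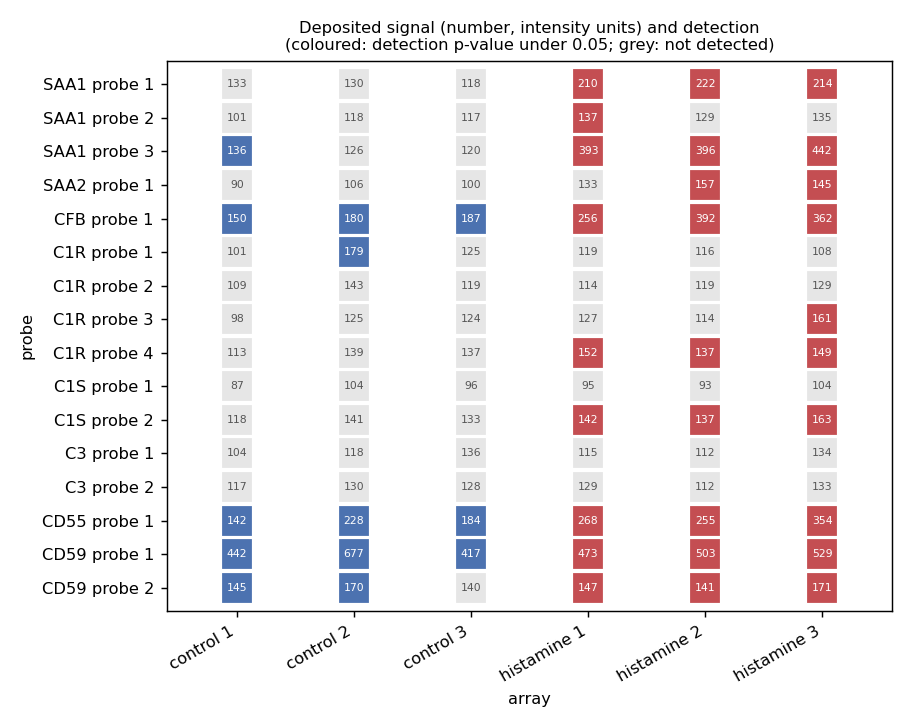
Deposited signal intensity (number in each square) of all 16 probes (vertical axis, in the order of the annotation by gene) on the 6 arrays (horizontal axis); coloured squares were detected at a detection p-value under 0.05 and grey ones were not. CFB, CD55 and the first CD59 probe are detected on every array, both C3 probes on none, and the kept probes of C1R and C1S on the histamine arrays alone.

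CFB encodes factor B, which binds deposited C3b to form the alternative pathway enzyme that cleaves C3. It was detected on all 6 arrays, at deposited signals of 150.5, 180 and 187 in controls and 256, 392 and 362 with histamine. The normalized log2 intensity was 5.83, 5.84 and 6.50 on control arrays 1, 2 and 3 and 7.49, 8.44 and 8.01 on histamine arrays 1, 2 and 3. Every histamine array was above every control array, by at least 0.98; control replicate 3 was the highest control and histamine replicate 1 the lowest treated array. The difference was 1.92 ± 0.25 (SE, n = 3 per group), or 3.79-fold, and lay between 1.69 and 2.17 when single arrays were left out. It was 1.09 without background correction and 0.84 in the authors' processed table. C2, the classical pathway counterpart of factor B and its near neighbour on chromosome 6, was detected on 1 histamine array and no control array.

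C3 encodes the protein that both C3-cleaving enzymes act on. Neither of its probes was detected on any array. The deposited signals of ILMN_1762260 were 117, 130 and 128 on control arrays 1, 2 and 3 and 129, 112 and 133 on histamine arrays 1, 2 and 3. Those of ILMN_1662523 were 104, 118 and 136 in controls and 115, 112 and 134 with histamine. The groups overlapped on both probes, and no change of C3 was detectable at this signal. The lowest detection p-value of the C3 probes was 0.074, reached on histamine replicate 3 by both.

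C1R and C1S encode the proteases of the first complement component and lie next to each other on chromosome 12. Both sat at the detection limit. The C1R probe ILMN_1764109 read 4.87, 5.01 and 5.18 on control arrays 1, 2 and 3 and 5.95, 5.57 and 5.74 on histamine arrays 1, 2 and 3. The C1S probe ILMN_1781626 read 5.00, 5.07 and 5.08 in controls and 5.66, 5.57 and 6.06 with histamine. Each was detected on all histamine arrays and on no control array, and the groups did not overlap. Neither passed the threshold in the fit, and with controls below background only a bound on the size can be given. C1R was at least 1.28-fold and C1S at least 1.29-fold higher, with 1.19-fold to 1.36-fold and 1.16-fold to 1.37-fold when single arrays were left out.

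The other probes of C1R did not give 1 direction. ILMN_1683687 was detected on histamine array 3 alone, and all its histamine values lay above its control values. ILMN_1677198 was detected on no array, and ILMN_1656242 on control array 2 alone. The groups overlapped on the latter pair. The second probe of C1S was detected on no array. Without the intensity trend in the variance estimate C1R and C1S both passed the threshold, and C1R also did in the authors' processed table.

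CD55, also called decay-accelerating factor, was detected on every array. Its deposited signals were 142, 228 and 184.5 on control arrays 1, 2 and 3 and 268, 255 and 354 on histamine arrays 1, 2 and 3. The normalized log2 intensity was 5.62, 6.50 and 6.46 in controls and 7.59, 7.53 and 7.98 with histamine. The groups did not overlap and lay 1.03 apart; control replicate 1 was the lowest array. The difference was 1.51 ± 0.24 (SE, n = 3 per group), or 2.84-fold, and 1.22 without control replicate 1. It was 0.83 without background correction and 0.63 in the authors' processed table.

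CD59, which stops the assembly of the lytic pore, was detected on every array by its brighter probe. That probe read 8.39, 8.74 and 8.43 on control arrays 1, 2 and 3 and 8.68, 8.90 and 8.72 on histamine arrays 1, 2 and 3. Control replicate 2 lay above histamine replicates 1 and 3, so the groups overlapped. The difference was 0.24 ± 0.15 (SE, n = 3 per group) and did not pass. The dimmer probe, detected on 2 control arrays and all histamine arrays, read 5.69, 5.68 and 5.30 in controls and 5.83, 5.71 and 6.23 with histamine, a difference of 0.37 ± 0.26 that did not pass either. Whether CD55 and CD59 differ from each other in their response was not tested.

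**Figure D3:**
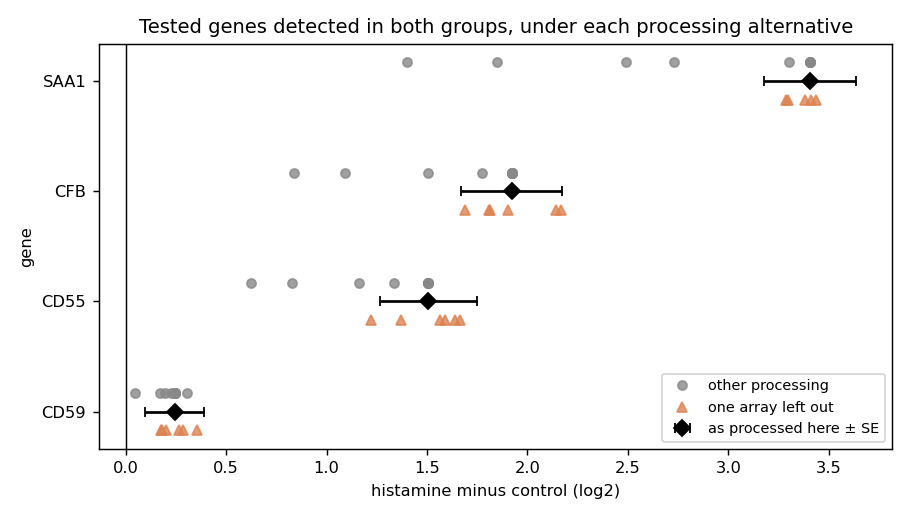
Histamine minus control on the log2 scale (horizontal axis) for the 4 tested genes with a probe detected in both groups; black diamonds show the difference ± SE as processed here, grey circles other ways of processing and orange triangles the fits with 1 array left out. SAA1 without control replicate 1 is left out, since it then has only a bound. SAA1 spans 1.40 to 3.44 and CFB 0.84 to 2.17, with the low ends from the authors' processed table.

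The other genes of these pathways were taken from 7 lists with 100 genes, of which 94 have a probe and 33 passed the filter. Of these 33, 6 rose, 2 fell and 25 did not pass the threshold, where 9.29% of all genes tested passed upward and 12.1% downward. IL6 is among those that rose, although its probe passed the filter only with the histamine group. On no array were 43 of the 94 detected. The median difference over all genes tested was -0.08.

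The plasma components of complement were mostly below detection. Of 13 classical and lectin pathway genes 2 were tested and neither passed (0 also at an unadjusted p-value under 0.05 in limma). C1QA, a chain of C1q, differed by -0.14 ± 0.30. FCN1, a lectin pathway ficolin, was detected on 3 control arrays and on no histamine array, but its values overlapped between the groups. C4A was detected on 2 histamine arrays and no control array, and C4B on none. Of 9 alternative and terminal pathway genes 2 were tested and none passed (median -0.13); 1 was below an unadjusted p-value of 0.05. That gene was C5, the component cleaved at the start of lysis, chosen after its value was seen, with a difference of -0.40 ± 0.15 (adjusted p = 0.0669, limma) and no overlap of the groups. CFD, the protease that activates factor B, was detected on all 6 arrays and differed by 0.13 ± 0.17. The pore components C7, C8A, C8B, C8G and C9 were detected on no array.

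Of the 14 soluble and other regulators of complement 10 have a probe, 3 were tested and none passed (0 also at an unadjusted p-value under 0.05 in limma; median 0.05). SERPING1, the inhibitor of C1r and C1s, was detected on no array, and neither was CLU, a fluid-phase inhibitor of the pore. C4BPB, which with C4BPA lies beside CD55 on chromosome 1 and encodes a chain of the C4b-binding protein, read 5.67, 6.22 and 5.96 on control arrays 1, 2 and 3 and 6.83, 5.68 and 7.34 on histamine arrays 1, 2 and 3. Its groups overlapped, with histamine replicate 2 among the controls (difference 0.66 ± 0.33, and 0.49 ± 0.31 on its other probe; neither passed). C4BPA was detected on no array, and of the neighbouring receptor genes CR2 was detected on 2 histamine arrays and CR1 on none.

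Among 9 complement receptor genes 2 were tested (median -0.24). C1QBP, a mitochondrial protein that also binds C1q, read 13.4, 13.7 and 13.5 in controls and 13.4, 13.1 and 13.1 with histamine. It fell by 0.35 ± 0.10 on the log2 scale (adjusted p = 0.0237, limma). The call was lost with no filter on detection (adjusted p = 0.0906), without the intensity trend (adjusted p = 0.132), and when control replicate 2, histamine replicate 2 or histamine replicate 3 was left out (adjusted p = 0.126, 0.0943 and 0.101). ITGB2, the shared beta chain of complement receptors 3 and 4, differed by -0.13 ± 0.18 and did not pass. C3AR1 was detected on 1 control array, and C5AR1 and C5AR2 on none. Of 6 receptors for serum amyloid A only SCARB1 was tested, with -0.16 ± 0.18 (0 of 1 passed, also at an unadjusted p-value under 0.05 in limma); FPR2, TLR2, TLR4, CD36 and P2RX7 were detected on no array.

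Of 23 further acute phase genes 22 have a probe and 3 were tested; 1 rose, none fell and 2 did not pass (median 0.32). LCN2, lipocalin 2, which binds bacterial siderophores, read 9.86, 10.2 and 9.78 on control arrays 1, 2 and 3 and 11.3, 11.7 and 11.6 on histamine arrays 1, 2 and 3. It rose 3.10-fold (1.63 ± 0.13; adjusted p = 1.74e-07, limma), was higher on all 3 histamine arrays, and kept its call under every alternative run. SERPINA3, a protease inhibitor, differed by 0.32 ± 0.60, and ALB, albumin, by -0.19 ± 0.24. The liver acute phase genes CRP, HP, ORM1, ORM2, FGG, HAMP and LBP were detected on no array. Over the 22 genes with a probe, 14 were detected on none.

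Signals and factors that act on acute phase and complement genes were measured more fully, with 20 of 26 tested. Of these 5 rose, 1 fell and 14 did not pass (median 0.11). IL6 is counted as risen here and in the next count, although its probe passed the filter only with the histamine group. At an unadjusted p-value under 0.05 in limma 10 of the 20 passed, 2 of them lower. Of all genes tested 34.5% passed that level, 20.7% downward. NFKB2, IFNGR1, IFNGR2 and IL6ST, the last of these lower, passed only without adjustment. IL6, the main inducer of serum amyloid A in liver, read 5.25, 5.59 and 5.36 on control arrays 1, 2 and 3 and 8.45, 8.71 and 8.71 on histamine arrays 1, 2 and 3. It rose by 3.22 ± 0.20 on the log2 scale and was detected on 1 control array. The IL6 probe passed the filter only with the histamine group and so was selected toward being higher there, and no p-value is given for it. IL1A, a keratinocyte alarmin, read 7.07, 7.62 and 7.61 in controls and 9.27, 8.76 and 9.21 with histamine, and rose by 1.64 ± 0.19 (adjusted p = 1.19e-05, limma). IL1B rose by 0.73 ± 0.14 (adjusted p = 0.00178, limma). For these cytokines all histamine arrays lay above all controls.

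IRF1, a transcription factor of the interferon response, rose by 0.50 ± 0.12 (adjusted p = 0.00607, limma), and CEBPD, a C/EBP factor of the acute phase response, rose by 0.42 ± 0.13 (adjusted p = 0.0355, limma); this pair was named after its values were seen. IRF1 lost its call with median scaling and without the intensity trend (adjusted p = 0.218 and 0.0507). CEBPD lost its call with those settings, with no filter on detection, with replicate numbers as a block, and when control replicate 2, control replicate 3, histamine replicate 1 or histamine replicate 2 was left out (adjusted p between 0.0518 and 0.47). JAK1, a kinase of the IL-6 and interferon receptors, fell by 0.58 ± 0.18 (adjusted p = 0.0299, limma). It lost its call with no filter on detection and when control replicate 1, control replicate 2, histamine replicate 1 or histamine replicate 3 was left out (adjusted p between 0.0668 and 0.125). STAT3 (0.15 ± 0.12), NFKB1 (-0.01 ± 0.10), RELA (-0.19 ± 0.21), CEBPB (-0.22 ± 0.11) and IL6ST (-0.30 ± 0.14), which carry the signals of these cytokines, did not pass. TNF, IL6R, IL1R1 and JAK2 were detected on no array.

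**Figure D4:**
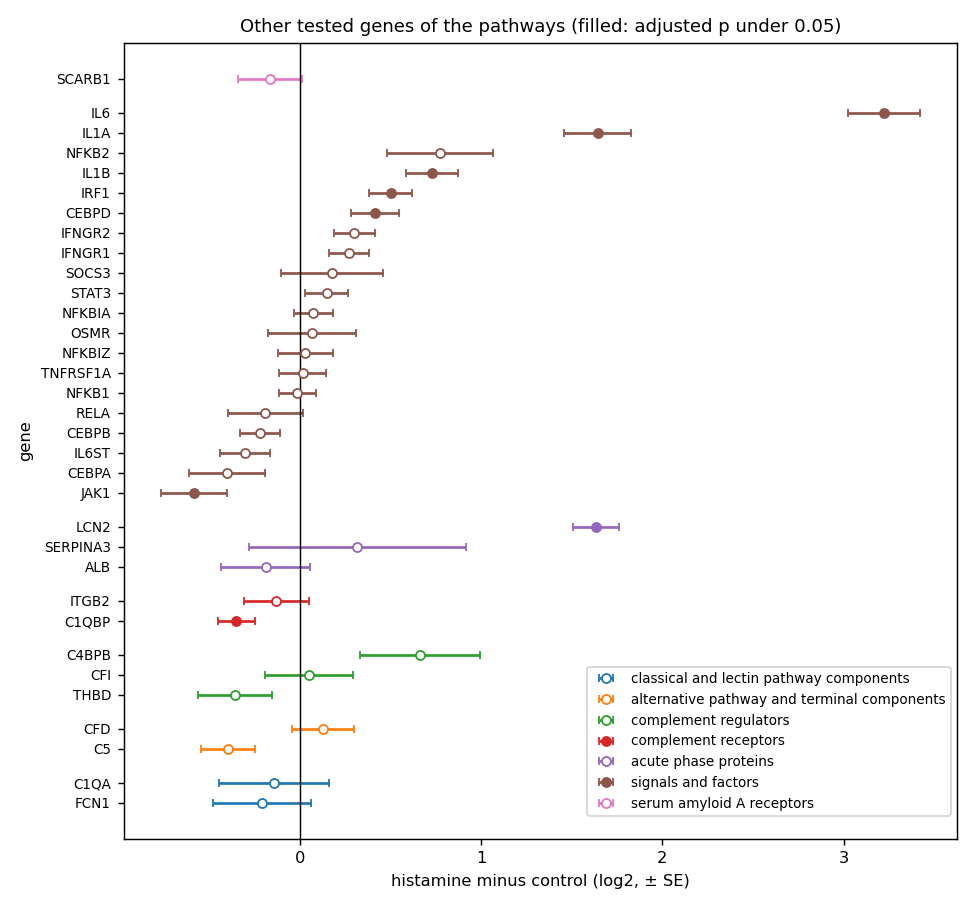
Histamine minus control on the log2 scale ± SE (horizontal axis) for the 33 tested genes of the 7 pathway lists (vertical axis, 1 colour per list); filled points passed an adjusted p-value of 0.05, and the FCN1 point rests on histamine arrays below background. IL6 and SERPINA3 were each detected on 1 control array and passed the filter only with the histamine group. IL6, IL1A and LCN2 stand highest, and no tested gene of the classical, alternative or terminal pathways or of the regulators is filled.

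The genes whose pattern over the 6 arrays was nearest to a member were found by the root mean square difference of their log2 values, each taken relative to its own control mean. Nearest to SAA1 were SERPINB4 (0.34 log2 units), IL6 (0.35), S100A7 (0.39), SERPINB3 (0.42) and IL1RL1 (0.48). S100A7 is the antimicrobial protein psoriasin, and SERPINB3 and SERPINB4 are near-identical squamous serpins. Nearest to CFB were PMAIP1 (0.22), ASS1 (0.28), HLA-F (0.29), ZFP36L1 (0.31) and ZNF658 (0.31). Nearest to CD55 were MCTS1 (0.15), GJA1 (0.17), KLF5 (0.17), ATP11B (0.17) and DNAJB4 (0.18). Of these 15 genes 7 have a further kept probe. The histamine minus control difference on it was 3.26 for SERPINB3, 1.80 for IL1RL1, 1.20 for PMAIP1, 1.27 for ASS1, 0.77 for HLA-F, 1.09 for DNAJB4 and -0.33 for ATP11B, against 2.91, 3.22, 1.95, 1.66, 1.94, 1.49 and 1.37 on the probe compared. It was lower for 6 of the 7, ATP11B among them with the opposite sign. These distances are a description over 6 arrays that share the group difference.

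The median probe signal was 121 to 142 per array, and 36.7% to 40.9% of the 47322 probes were detected. The keratinocyte label held: 9 of 9 keratinocyte markers with a probe, KRT5 and KRT14 among them, were detected on all arrays, and their summed background-corrected intensity was 24749 to 25544 in controls and 29262 to 35272 with histamine. Of these markers 3 rose, KRT14 by 0.53, KRT16 by 2.49 and PERP by 1.16, none fell and 6 did not pass. Of all genes tested 9.29% passed upward and 12.1% downward. KRT6A, KRT17 and TP63, also listed as keratinocyte markers, have no probe. Skeletal muscle markers moved with the treatment, above all on histamine replicate 1: all 11 with a probe were detected there, 6 on each of the other histamine arrays and 1 to 3 on the controls. Their summed intensity was 32133 on histamine replicate 1, 1376 and 1152 on replicates 2 and 3, and 214 to 242 in controls. All 6 tested muscle markers rose, some of which passed the filter only with the histamine group. Without histamine replicate 1 the difference was 3.44 for SAA1, 2.17 for CFB, 1.56 for CD55 and 0.28 for CD59, and 3 members passed. Leaving it out does not remove the muscle signal. ACTA1 still read 9.51 and 9.19 on histamine replicates 2 and 3, against 4.52, 4.66 and 4.54 on control arrays 1, 2 and 3.

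Of 12 hepatocyte markers 8 were detected on no array, APOB, APOH, AHSG and F2 among them. ALB and CYP2E1 were detected on all arrays, and APOA1 and TTR on some. The summed intensity of this list was 254 to 293 in controls and 311 to 382 with histamine; CYP2E1 rose by 0.91 (adjusted p = 0.00472, limma). Of 12 monocyte and macrophage markers 5 were detected on no array (PTPRC, CD163, TYROBP, FCER1G and C1QB). CD14 and CD68 were detected on all arrays, and LYZ, CSF1R, AIF1, ITGAM and C1QA on some. In this list 1 of the 4 tested rose (CD68, by 1.26), where 9.29% of all genes tested passed upward. The sum was 613 to 721 in controls and 966 to 1048 with histamine. Of 12 fibroblast and stroma markers 5 were detected on no array (PDGFRA, PDGFRB, POSTN, THY1 and SFRP2), and the sum was 946 to 1133 in controls and 1110 to 1256 with histamine. FBLN1 and MFAP5 were detected on all arrays, with differences of 0.14 ± 0.15 and 0.47 ± 0.21, and neither passed. COL1A1, COL1A2, COL3A1, DCN and LUM were detected on some arrays. The part of these markers in the differences of the members was not tested, and more RNA per cell cannot be told apart from more cells of a kind in a bulk extract. The sample names in the labels share 1 leading number among the 3 controls and another among the 3 histamine arrays. What the number stands for is not stated, and anything that goes with it cannot be told apart from the treatment.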

How the data were processed

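The authors deposited mean bead signal intensity per probe and array, with no background subtraction or normalization, and detection p-values, which rank each probe among the negative control beads, per the file headers. The authors' processed table holds values on a log2-like scale, with a median of 7.46 over all arrays together. How the background was treated in that table is unknown. GenomeStudio 2010.1 and lumi are named per the submitters' processing notes.

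Signals of 47322 probes were background-corrected here by normexp (limma 3.58.1, run in R 4.3.3 with statmod 1.5.0; offset 16, which compresses folds of dim probes; negative controls inferred from the detection p-values), taken to log2 and quantile normalized. Of all probes, 17871 passed the detection filter, 30112 carry 1 gene symbol, 8 several and 17202 none; 30073 matched the GRCh38.p14 gene table by Entrez identifier. A gene is its brightest passing probe, which gave 10406 genes. Probe differences come from a fit over all passing probes. Groups were compared with limma (empirical Bayes, intensity trend; 2-sided p-values, Benjamini-Hochberg over all genes tested; threshold 0.05), and the fit was tested on simulated data. A probe detected on no array of 1 group gets a bound in place of a difference.

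The 9 genes and the lists were chosen with earlier results of these data known. Named genes are all members, in each list at most 4 genes past the threshold, taken by size of difference, and the 5 genes nearest to each of the 3 members with the largest difference; all other names, among them list genes that did not pass, were picked with their values known. The number of arrays limits the precision. Alternatives were other background settings, scaling, filters, probe summaries and variance models, a replicate block, and leaving out each array.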

Additional observations from a re-analysis of the deposited data

How the results depend on the processing

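The members were chosen on this contrast, so their calls under other processing of the same arrays are a description and no sign of stability. Asking for detection at 0.01 on every array left out SAA1, CD55, C1R and C1S, so that 1 member, CFB, passed. Without the intensity trend 5 members passed, with C1R at 0.74 and C1S at 0.71 as the additional ones. The differences were those of the main fit, while the SE went from 0.275 to 0.149 for C1R and from 0.275 to 0.154 for C1S. C1R also passed in the processed table, at 0.19, and why was not tested. These fitted values are set against controls below background and do not estimate a size. With no filter on detection 4 members passed, with SAA2 as the additional one, also against controls below background. Leaving out single arrays gave 3 members past the threshold each time, with CD55 at 1.22 to 1.66 and CD59 at 0.18 to 0.35.

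Of all genes, 2224 passed (967 higher, 1257 lower). The count was 1477 with no filter on detection (794 lower) and 1373 without the trend (638 higher, 735 lower). Leaving out single arrays gave 1218 to 2544 (623 to 1088 higher, 595 to 1456 lower); moves of over 1.5 times came without control replicate 2 (1218; 623 higher, 595 lower), control replicate 1 (1455; 764 lower), histamine replicate 1 (819 lower) and histamine replicate 3 (815 lower). Median scaling moved the median difference of all genes from -0.08 to -0.26, with 456 higher and 20.1% of calls higher against 43.5% (SAA1 3.30, CFB 1.77, CD55 1.33, CD59 0.05). Pathway list genes called lower, 2 as reported, were 4 with median scaling, 0 with no filter on detection, 1 without the trend and 0 to 2 without single arrays. The calls lost are those of C1QBP and JAK1 given above.

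The shared replicate numbers showed no visible pairing of the arrays: deviations from the group means correlated at -0.03, -0.03 and -0.05 across genes for numbers 1, 2 and 3. Arrays with different numbers were not compared in this way, so whether the arrays were paired cannot be told from these values. With the replicate block 1903 genes and 3 members passed, and of the named list genes CEBPD lost its call. Probes near background, such as those of C1R, C1S, SAA2 and C3, carry little information on size.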
